A study of Mus musculus with 72 samples.

Results

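The hippocampus and the cerebral cortex of 15-day-old (P15) mice were compared on 11 of the 72 arrays of a study of the Ts1Cje mouse, a model of Down syndrome. The 5 hippocampus arrays came from 3 Ts1Cje mice and 2 disomic mice, and the 6 cerebral cortex arrays from 3 Ts1Cje mice and 3 disomic mice. In all of their cells Ts1Cje mice carry 3 copies of a segment of chromosome 16, 1 of them translocated onto chromosome 12. The study also describes a deletion at the end of chromosome 12 in these mice, which takes in genes such as Dnah11, Itgb8 and Sp8. Disomic mice are their littermates with the normal 2 copies, from Ts1Cje fathers and C57BL/6 mothers. The study profiled cerebral cortex, hippocampus and cerebellum at P1, P15, P30 and P84, with 1 array for each region of each mouse. All arrays labelled P15 and either region were taken, except 1 of the 12: the array labelled disomic hippocampus replicate 3.

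The left-out array carried a cerebellar profile. It read 12.04 for Gabra6, 8.58 for Cbln3 and 13.82 for Pcp2, which are genes of cerebellar granule cells and Purkinje cells, against 1.97 to 2.35, 2.28 to 2.51 and 2.90 to 3.55 on the other 5 hippocampus arrays. Its correlation over all probe sets was 0.990 to 0.994 with the P15 cerebellum arrays other than disomic replicate 3 and 0.934 to 0.946 with the hippocampus arrays. The cerebellum-labelled disomic replicate 3 in turn correlated at 0.987 to 0.995 with the 5 hippocampus arrays and at 0.942 to 0.948 with the other 5 cerebellum arrays, and read 2.02 for Gabra6, 7.84 for Prox1 and 8.25 for Dsp. It was not used as hippocampus, and whether the 2 labels were exchanged was not tested. The remaining 11 arrays fell where their region labels put them. On an axis set at 0 for P30 cortex and 1 for P30 hippocampus, over 1145 probe sets, the 5 hippocampus arrays lay between 0.835 and 0.981 and the 6 cortex arrays between 0.030 and 0.093. The array medians, 3.22 to 3.26 on the log2 gcRMA scale, differed little. With the left-out array counted as hippocampus, as labelled, the calls below would number 729 probe sets higher and 1033 lower, in place of 1439 and 1387, and of the 167 genes named here with a call 62 would lose it with the sign kept and 1, Gabra5, with the sign turned. All 11 arrays read 2.03 to 2.58 for Xist and 8.02 to 9.0 for the Y-linked gene Eif2s3y, although the labels and methods give female mice. How the mice of a replicate number relate is not stated, so p-values measure the spread between these samples.

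The hippocampus is a folded sheet of cortex with a single main layer of principal neurons. Its dentate gyrus holds granule cells, which go on being born after birth, and its CA fields hold pyramidal cells, linked to the granule cells by mossy fibres. The cerebral cortex is a layered sheet in which neurons of the upper layers project mainly within the cortex and those of the deep layers project below it. In mice of this age eyes have recently opened, synapses are forming fast and myelination is under way. In bulk tissue, fewer cells of a type and less RNA per cell cannot be told apart, and a region difference may be either.

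Of 45101 probe sets, 1439 (3.19%) were higher and 1387 (3.08%) were lower in P15 hippocampus than in P15 cortex, at a moderated t of at least 4 in size and an adjusted p of at most 0.05 in limma with genotype as a term. Counted as genes, with 1 probe set for each of 18194 genes, 822 (4.52%) were higher and 762 (4.19%) lower. The groups of 5 and 6 arrays did not overlap for 685 of the genes called higher and 640 of those called lower; among all genes 9.10% had groups that did not overlap. The difference was at least 2-fold for 266 genes higher and 252 lower, and at least 8-fold for 22 higher and 16 lower. Its median was 0.75 among genes called higher, −0.78 among genes called lower and close to 0 over all genes, on the log2 scale. The mean difference within each genotype had the called direction for all 822 and all 762 genes. The calls rest on these same arrays, so this agreement is largely set by the selection and is not a separate test.

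**Figure D1:**
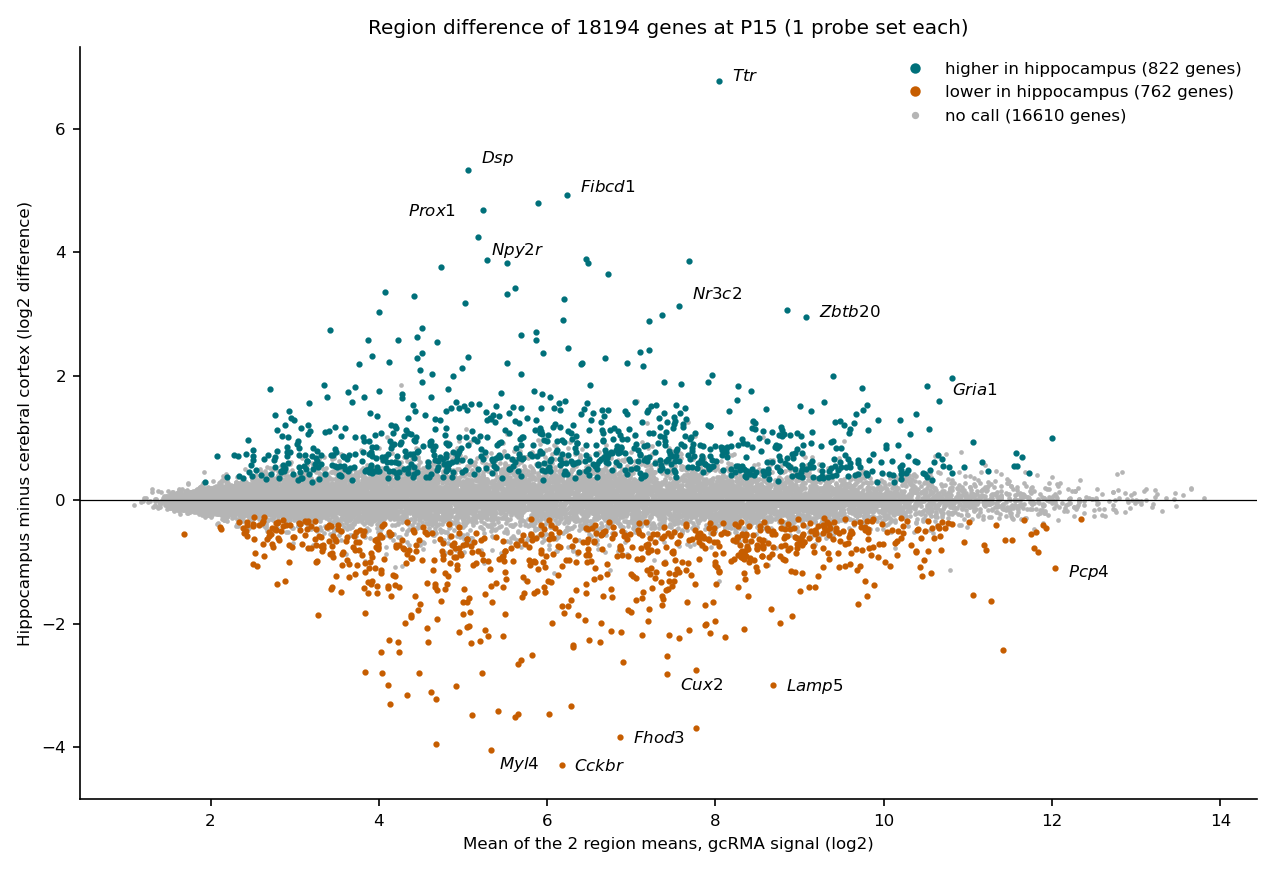
Each point is 1 of 18194 genes, with the mean of its 2 region means on the x axis (gcRMA signal, log2) and the log2 difference, hippocampus minus cerebral cortex, on the y axis. Genes called higher in hippocampus (822) and lower (762) are coloured, and the differences reach 6.77 for Ttr and −4.28 for Cckbr.

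Values below are gcRMA signals on the log2 scale. Hippocampus values are listed as Ts1Cje replicates 1, 2 and 3 and then disomic replicates 1 and 2, and cortex values as the lowest to the highest of 6 arrays with their median. A ± after a group mean is the SD over 5 hippocampus or 6 cortex arrays, and after a difference (hippocampus minus cortex) it is the standard error of the fit. A group mean below 3.24, the median of the arrays, is called near the floor of the array, where a difference in log2 understates the change.

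The promoters of 4 genes at the head of the ranking are shown to give the regulatory sequence of leading genes in either direction. In each direction they are the highest-ranked gene with an eligible window in the RefSeq table and the highest-ranked one whose window held a motif searched for. Windows on the chromosome that carries Ttr, the top-ranked gene, were not eligible for display but count in the shares below. Each is 300 bases of RefSeq on the GRCm38.p6 build, from 250 before the annotated start to 50 after it, 5′ to 3′ on the gene's strand. Capitals mark matches to any of 3 motifs searched on both strands: CAGATG, an E-box bound by NeuroD factors, AGAACA, a half-site of the mineralocorticoid and glucocorticoid receptors, and AGGTCA, a half-site of nuclear receptors such as Rorb. Dsp lies at chr13:38151044-38151343, plus strand, Prox1 at chr1:190170778-190171077, minus strand, Cckbr at chr7:105425481-105425780, plus strand, and Myl4 at chr11:104550413-104550712, plus strand.
Dsp: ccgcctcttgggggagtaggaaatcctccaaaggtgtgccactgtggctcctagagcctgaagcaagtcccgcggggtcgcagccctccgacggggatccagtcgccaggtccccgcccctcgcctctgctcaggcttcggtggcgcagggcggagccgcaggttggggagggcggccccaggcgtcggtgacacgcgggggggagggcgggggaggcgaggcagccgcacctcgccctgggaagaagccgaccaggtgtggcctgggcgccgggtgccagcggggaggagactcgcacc
Prox1: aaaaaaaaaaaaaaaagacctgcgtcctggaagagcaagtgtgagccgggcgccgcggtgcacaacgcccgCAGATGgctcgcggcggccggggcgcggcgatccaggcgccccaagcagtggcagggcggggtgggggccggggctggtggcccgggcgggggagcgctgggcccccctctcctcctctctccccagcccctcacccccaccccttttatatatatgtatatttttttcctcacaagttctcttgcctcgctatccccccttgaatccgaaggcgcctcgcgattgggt
Cckbr: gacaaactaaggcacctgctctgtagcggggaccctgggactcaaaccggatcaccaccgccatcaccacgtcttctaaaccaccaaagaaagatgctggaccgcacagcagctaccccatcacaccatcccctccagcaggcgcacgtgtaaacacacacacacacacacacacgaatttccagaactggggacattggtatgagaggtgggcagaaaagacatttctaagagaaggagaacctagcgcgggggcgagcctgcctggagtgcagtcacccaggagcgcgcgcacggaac
Myl4: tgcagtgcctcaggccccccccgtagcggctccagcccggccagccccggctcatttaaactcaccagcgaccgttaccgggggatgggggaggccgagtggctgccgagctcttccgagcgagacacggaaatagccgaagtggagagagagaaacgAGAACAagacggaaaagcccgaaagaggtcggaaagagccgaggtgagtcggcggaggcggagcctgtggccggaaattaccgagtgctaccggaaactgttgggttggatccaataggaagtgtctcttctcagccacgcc
The Prox1 window held 1 CAGATG and the Myl4 window 1 AGAACA, and the other 2 windows held none of the 3. Dsp and Prox1 were higher and Cckbr and Myl4 lower in hippocampus. Over all 32851 windows of the table, 17.2% held CAGATG, 19% AGAACA and 16.3% AGGTCA. Of the 40 genes ranked below, 29 had a window: among 13 higher in hippocampus 3 held CAGATG, 0 AGAACA and 2 AGGTCA, and among 16 lower in hippocampus 4, 3 and 0 did. A match is a description of letters, not a binding site, and its absence says only that these letters are not in the window. All shares count either strand. The shares over the table are per window, whereas a ranked gene counts when any of its windows holds the motif, so the 2 are not on the same base.

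The ranked genes, 20 in each direction, were taken only from called genes whose groups did not overlap. Their lack of overlap is therefore set by that choice. Transthyretin and 2 desmosomal genes were among the 4 genes most raised in hippocampus. Ttr, the thyroid hormone and retinol carrier that the choroid plexus secretes, read 12.63, 10.59, 11.58, 8.52 and 13.73 in hippocampus, against 2.93 to 6.38 (median 4.86) in cortex. Its difference was 6.77 ± 0.90 (adjusted p = 0.00066), and its hippocampus arrays spread over 5.21 log2 units, more than those of any other gene named here. The groups did not overlap, as the ranking required. Dsp encodes desmoplakin, which anchors intermediate filaments to desmosomes and in the mouse brain marks dentate granule cells. It read 6.93, 7.89, 7.79, 7.93 and 8.07 in hippocampus, against 2.10 to 2.65 (median 2.43) in cortex, with a difference of 5.34 ± 0.19 (adjusted p = 2.3e-08) and cortex near the floor. Pkp2, encoding plakophilin 2 of the same junctions, read 7.93, 8.72, 8.53, 8.14 and 8.18 in hippocampus, against 3.29 to 3.72 (median 3.46) in cortex, a difference of 4.80 ± 0.15 (adjusted p = 1.2e-08). Ts1Cje replicate 1 was the lowest hippocampus array for both, and no hippocampus array of either came near a cortex array.

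Markers of both hippocampal fields stood beside them, with Fibcd1 at rank 3. Fibcd1, an acetyl-group receptor with a fibrinogen domain that marks CA1, read 8.46, 8.65, 9.07, 8.59 and 8.72 in hippocampus, against 3.49 to 4.31 (median 3.67) in cortex, a difference of 4.93 ± 0.16 (adjusted p = 1.8e-08). Prox1, the homeobox factor that sets and keeps granule cell identity, read 6.85, 7.50, 7.69, 8.32 and 7.48 in hippocampus, against 2.55 to 3.34 (median 2.86) in cortex, a difference of 4.68 ± 0.22 (adjusted p = 1.9e-07). Npy2r, the presynaptic Y2 receptor of neuropeptide Y, read 7.31, 7.28, 7.24, 7.19 and 7.53 in hippocampus, against 2.80 to 3.30 (median 3.05) in cortex. Its difference of 4.26 ± 0.10 shared the lowest adjusted p of the genes named here, 3.3e-09, with Nr3c2 and Lamp5. The mineralocorticoid receptor Nr3c2, which binds corticosterone with high affinity, read 9.15, 8.99, 9.14, 9.11 and 9.29 in hippocampus, against 5.86 to 6.17 (median 5.999) in cortex, a difference of 3.14 ± 0.08 (adjusted p = 3.3e-09). Zbtb20, a zinc finger repressor needed to form the CA fields, was higher on all 9 of its probe sets; the chosen one averaged 10.55 ± 0.11 in hippocampus and 7.60 ± 0.22 in cortex. None of these 5 genes had overlapping groups, which the ranking required for all but Zbtb20.

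The other genes among the 20 most raised came from several families. Calcium-binding proteins were 2 of them: the copine Cpne7 differed by 3.89 ± 0.14 and the calmodulin-like Cabp7 by 3.83 ± 0.18. The zinc finger factor St18 differed by 3.87 ± 0.17, and the orphan receptor Gpr161, which restrains hedgehog signalling at the primary cilium, by 3.82 ± 0.18. At synapses, Shisa6, an auxiliary protein that holds AMPA receptors at the postsynaptic density, averaged 9.63 ± 0.15 in hippocampus and 5.74 ± 0.59 in cortex. The postsynaptic scaffold Tanc1 differed by 3.42 ± 0.11 and the adhesion molecule Pcdh20 by 3.65 ± 0.21. Spink8, a Kazal-type protease inhibitor, read 6.85, 5.47, 7.24, 6.79 and 6.72 in hippocampus, against 2.78 to 2.97 (median 2.84) in cortex; Ts1Cje replicate 2 lay lowest. Lct, the lactase of the small intestine and in mouse brain a granule cell gene, read 5.24, 5.94, 6.06, 5.44 and 6.11 in hippocampus, against 2.22 to 2.63 (median 2.38) in cortex. The list ended with the interferon-inducible Mndal (3.32), the carbonic anhydrase Car12 (3.29), the ubiquitin ligase Rnf182 (3.25) and the Ras-like GTPase Rerg (3.18). All were called with adjusted p of 8.9e-06 or less.

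**Figure D2:**
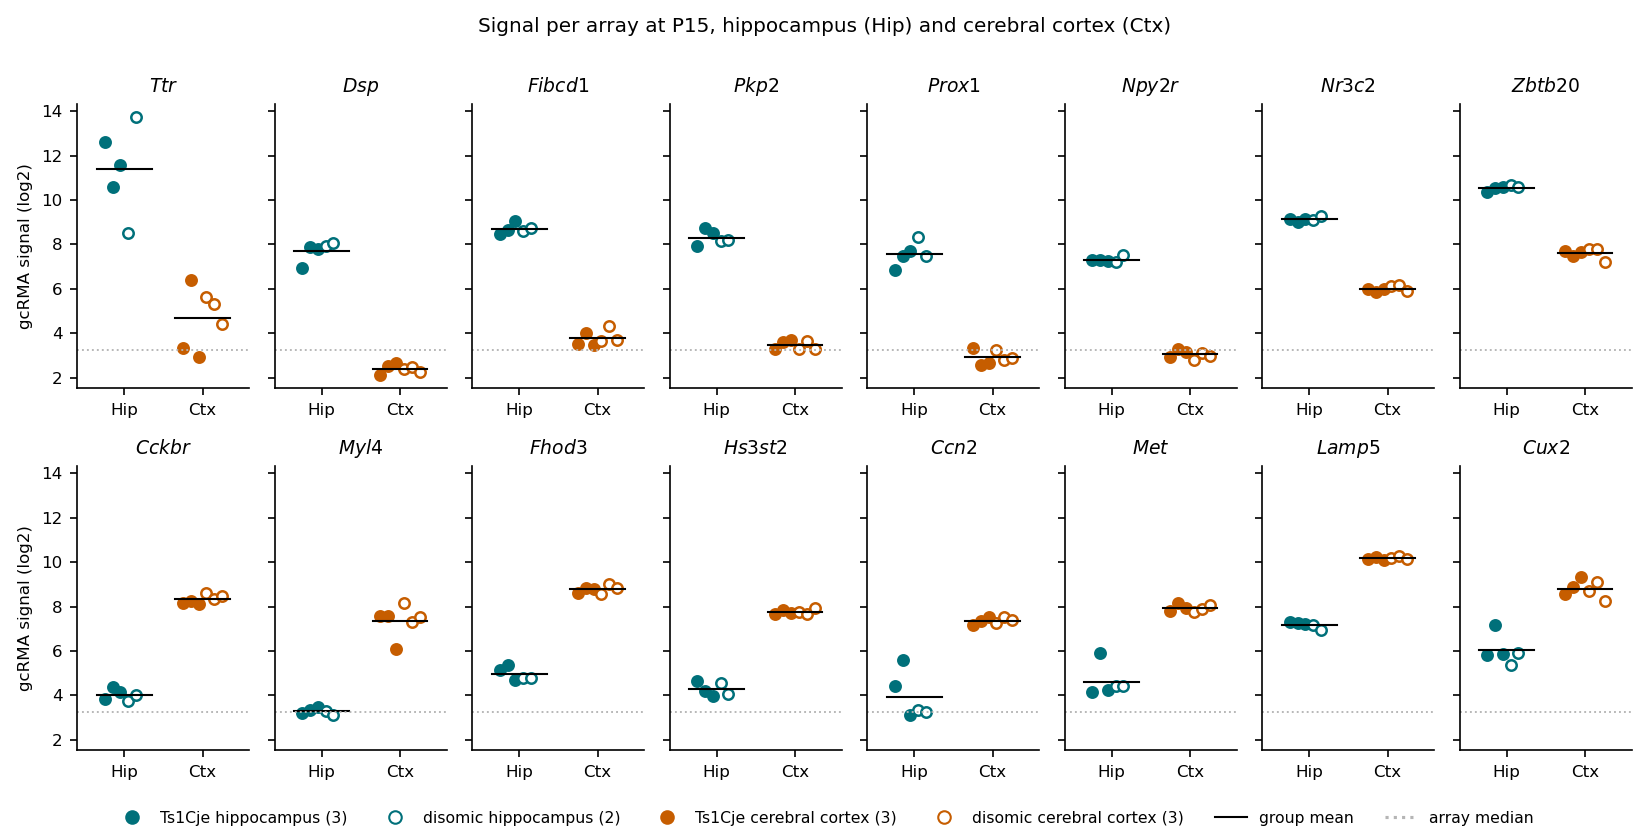
The y axis gives the gcRMA signal (log2) and each point is 1 array, hippocampus on the left of each panel and cerebral cortex on the right, with filled points for Ts1Cje and open points for disomic mice. Bars are group means and the dotted line is the median of the arrays, 3.24. In all 16 panels every hippocampus array lies on one side of every cortex array, and Ttr has the widest spread. For all panels but Zbtb20 this separation was set in advance, since ranked genes were chosen among those without overlap.

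Among the genes lower in hippocampus, Cckbr, the brain receptor of cholecystokinin, came first. It read 3.83, 4.39, 4.15, 3.75 and 4.04 in hippocampus, against 8.14 to 8.63 (median 8.28) in cortex, a difference of −4.28 ± 0.13 (adjusted p = 1.5e-08), 19.5-fold lower. Myl4, a myosin light chain of the atrium and of embryonic muscle, read 3.22, 3.33, 3.50, 3.30 and 3.12 in hippocampus, against 6.08 to 8.14 (median 7.55) in cortex; hippocampus stood close to the floor and the difference was −4.05 ± 0.28 (adjusted p = 4.4e-06). Lamp5, a lysosome-associated membrane protein of neurons, read 7.31, 7.24, 7.23, 7.19 and 6.96 in hippocampus, against 10.10 to 10.26 (median 10.17) in cortex, a difference of −2.99 ± 0.08 (adjusted p = 3.3e-09). In all 3 the groups were far apart. Cartpt, the precursor of the cocaine- and amphetamine-regulated peptide, read 3.28, 3.66, 3.05, 2.61 and 2.87 in hippocampus, against 4.83 to 6.73 (median 6.31) in cortex (difference −3.11 ± 0.28).

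For several cortical genes 1 hippocampus array lay nearer to cortex than the rest. Ccn2, a matricellular protein that marks the subplate, read 4.43, 5.59, 3.13, 3.35 and 3.24 in hippocampus, against 7.16 to 7.53 (median 7.35) in cortex, a difference of −3.46 ± 0.37 (adjusted p = 0.00012). Met, the receptor of hepatocyte growth factor, read 4.16, 5.91, 4.23, 4.40 and 4.42 in hippocampus, against 7.77 to 8.16 (median 7.90) in cortex, a difference of −3.33 ± 0.27. Cux2, a homeobox factor of upper-layer neurons, read 5.84, 7.18, 5.85, 5.39 and 5.93 in hippocampus, against 8.26 to 9.33 (median 8.80) in cortex, a difference of −2.82 ± 0.27; on another of its probe sets the difference was 0.12, with no call. In each of these Ts1Cje hippocampus replicate 2 was the highest of the 5. It was the highest in 256 of the 640 genes called lower without overlap, and in 14 of the 20 listed as most lowered, and the lowest in 232 of the 685 called higher without overlap. This is also the hippocampus array nearest to cortex on the P30 axis, at 0.835. Without it 1543 probe sets were higher and 1528 lower. Whether it held cortical tissue was not tested.

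The rest of the 20 genes came from several families. The formin Fhod3, which assembles actin filaments, differed by −3.83 ± 0.13, the actin nucleator Cobl by −3.51 ± 0.20, and Ipcef1, a partner of cytohesin exchange factors, by −3.69 ± 0.21. The voltage-gated potassium channel Kcnh5 differed by −3.47 ± 0.21. Hs3st2, which adds 3-O-sulphate to heparan sulphate, averaged 4.29 ± 0.30 in hippocampus and 7.76 ± 0.11 in cortex. Sema3a, a secreted repellent of growing axons, averaged 3.41 ± 0.25 in hippocampus and 6.43 ± 0.27 in cortex. Further genes of the 20 were the keratin Krt12 (−3.42), the receptor partner Ramp3 (−3.30), the cGMP-dependent kinase Prkg2 (−3.22), the sorting receptor Sorcs1 (−3.15) and Coch, a matrix protein known from the inner ear (−2.80). Trbv1, annotated as a T cell receptor segment, was lower on 1 of its 2 probe sets (−3.95), and the predicted gene Gm12371 differed by −2.98. Of all 762 genes called lower, 117 had hippocampus near the floor, and of the 822 called higher, 119 had cortex near the floor.

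**Figure D3:**
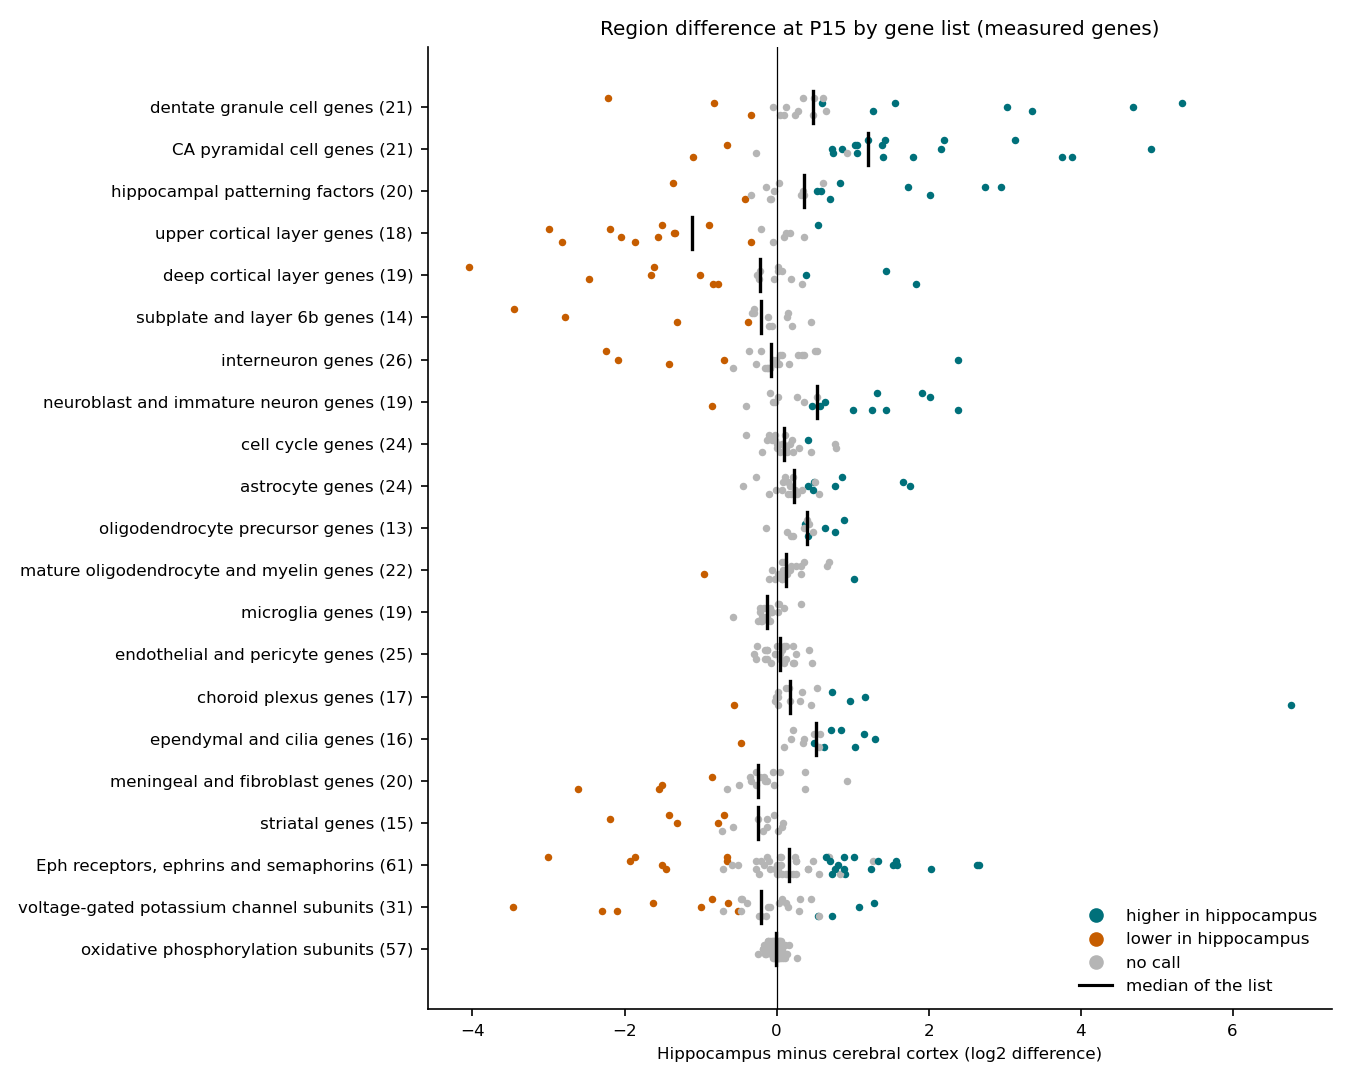
Each point is 1 measured gene of a list, at its log2 difference, hippocampus minus cerebral cortex, coloured when called; lists run down the page with the number of measured genes in parentheses. Vertical bars are medians, from −1.11 for upper cortical layer genes to 1.20 for CA pyramidal cell genes.

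CA pyramidal cell genes were the list most often higher in hippocampus: 17 of 21 measured were higher and 2 lower, with a median of 1.20 against about 0 for all genes. Over all genes 4.52% were higher and 4.19% lower, the shares to set beside the list counts here and below. Markers of CA2 and CA3 among them were Necab2, a neuronal calcium-binding protein (2.20 ± 0.20), Bok, a Bcl-2 family protein (2.16 ± 0.17), Iyd, which recycles iodide from iodotyrosines (1.79 ± 0.11), Rgs14, a brake on G protein signals known from CA2 (1.39 ± 0.09), and Amigo2, an adhesion protein (1.06 ± 0.13). The kainate receptor subunit Grik4 differed by 1.43 ± 0.18 and the endoplasmic reticulum protein Wfs1, a CA1 marker, by 1.40 ± 0.19. Bok read 7.64, 8.05, 8.50, 8.26 and 8.63 in hippocampus, against 5.87 to 6.45 (median 5.97) in cortex. Iyd and Amigo2 had cortex near the floor. Pcp4, a calmodulin regulator that marks CA2 and also layer 5 of cortex, was lower, at 11.51 ± 0.34 in hippocampus and 12.56 ± 0.26 in cortex; it lies in the segment triplicated in Ts1Cje.

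Dentate granule cell genes moved in both directions. Of 21 measured, 7 were higher and 3 lower, with a median of 0.47. Besides Dsp, Prox1 and Lct, these were C1ql2, a secreted organizer of mossy fibre synapses, which read 5.05, 4.70, 6.04, 6.17 and 5.58 in hippocampus, against 2.31 to 2.69 (median 2.48) in cortex (3.03 ± 0.23), the Rac and Cdc42 activator Dock10 (1.27 ± 0.15), the ciliary factor Rfx3 (0.60 ± 0.11), and Tdo2, which opens the ring of tryptophan (1.56 ± 0.27). For Tdo2, Ts1Cje replicate 2 read 2.67, close to the cortex maximum of 2.59. Npnt, a matrix ligand of integrins, was lower, at 6.99 ± 0.34 in hippocampus and 9.23 ± 0.12 in cortex, as was the PDZ protein Pdzd2 (−0.82 ± 0.15).

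Of 20 factors that pattern the hippocampus, 8 were higher and 2 lower, with a median of 0.36. Next to Zbtb20 stood Lhx9, a LIM homeobox factor that read 4.95, 4.76, 4.66, 4.72 and 4.92 in hippocampus, against 1.68 to 2.25 (median 2.08) in cortex (2.75 ± 0.11), on all 4 of its probe sets. Neurod1, the basic helix-loop-helix factor required for granule cells, averaged 8.96 ± 0.30 in hippocampus and 6.96 ± 0.26 in cortex (2.02 ± 0.15, adjusted p = 7.9e-06). Emx2, needed for growth of the dentate gyrus, differed by 1.72 ± 0.16. The 2 that were lower were Meis2 (−1.36 ± 0.21) and Nr2f1 (−0.42 ± 0.08), homeobox and nuclear receptor factors that pattern the cortex.

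Upper cortical layer genes were mostly lower in hippocampus: 11 of 18 measured were lower and 1 higher, with a median of −1.11. After Lamp5 and Cux2 came Rorb, the orphan nuclear receptor of layer 4, which read 5.60, 6.66, 6.38, 6.04 and 5.52 in hippocampus, against 7.65 to 8.58 (median 8.29) in cortex (−2.19 ± 0.22, adjusted p = 7.1e-05). The semaphorin receptor Plxnd1 differed by −1.86 ± 0.13, Cux1 by −1.56 ± 0.16 and the netrin receptor Unc5d by −1.50 ± 0.21. The groups did not overlap for any of these. Mdga1, a regulator of neuroligins, was the 1 higher, by 0.55 ± 0.09, with cortex near the floor.

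Deep layer genes divided. Of 19 measured, 7 were lower and 3 higher, with a median of −0.22. Foxp2, a forkhead factor of layer 6, stood near the floor in hippocampus (2.78 ± 0.25 in hippocampus and 5.26 ± 0.56 in cortex). Tbr1, the T-box factor of layer 6, differed by −1.65 ± 0.27, Rprm, a p53 target that marks the same layer, by −1.61 ± 0.12, and Sox5 by −1.01 ± 0.21. In the other direction Crym, a thyroid hormone-binding protein, averaged 11.42 ± 0.08 in hippocampus and 9.60 ± 0.15 in cortex and Bcl11b, the factor that directs subcortical projection, 9.85 ± 0.18 in hippocampus and 8.41 ± 0.22 in cortex. Bcl11b was higher on all 4 of its probe sets. Fezf2, which acts before Bcl11b in layer 5, read 7.62 to 8.51 in hippocampus and 7.45 to 8.47 in cortex (0.07 ± 0.22, adjusted p = 0.937), and Tle4, a corepressor of layer 6, differed by −0.23 ± 0.12 (adjusted p = 0.366).

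Of 14 subplate and layer 6b genes, 4 were lower and 0 higher, with a median of −0.21. Besides Ccn2 these included Cplx3, a complexin of the vesicle release machinery, which read 2.62, 2.91, 2.24, 2.33 and 2.11 in hippocampus, against 4.47 to 5.84 (median 5.26) in cortex (−2.78 ± 0.22, adjusted p = 1.2e-05), and the dopamine receptor Drd1 (−1.31 ± 0.21). Hippocampus lay near the floor for Cplx3 and close to it for Drd1.

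Genes that all inhibitory neurons share were not called, and several of their peptides were lower in hippocampus. Of 26 interneuron genes, 4 were lower and 1 higher, with a median of −0.07. The enzymes of GABA synthesis, Gad1 (0.16 ± 0.09) and Gad2 (0.07 ± 0.15), and the vesicular transporter Slc32a1 (−0.01 ± 0.21) were not called, with adjusted p of 0.372, 0.9 and 0.996. Nor were somatostatin, Sst (0.29 ± 0.13), and parvalbumin, Pvalb (−0.36 ± 0.30). Vip, the peptide of bipolar interneurons, read 7.51, 8.09, 7.39, 7.06 and 6.55 in hippocampus, against 9.17 to 9.66 (median 9.32) in cortex (−2.09 ± 0.19, adjusted p = 4e-05). Crh, corticotropin-releasing hormone, read 6.63, 7.35, 6.56, 5.90 and 5.98 in hippocampus, against 8.002 to 9.09 (median 8.79) in cortex (−2.24 ± 0.20, adjusted p = 3e-05). Npy differed by −0.69 ± 0.12 and the enkephalin precursor Penk by −1.41 ± 0.25, with overlap for Penk. Calb2, the calcium buffer calretinin, averaged 8.31 ± 0.18 in hippocampus and 5.90 ± 0.36 in cortex; it is also on the list of immature neurons, since young granule cells and mossy cells of mice carry it.

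Genes of neuroblasts and immature neurons were more often higher: 10 of 19 measured were higher and 1 lower, with a median of 0.53. Sox11, a factor of newborn neurons, read 9.57, 8.35, 7.36, 10.11 and 8.83 in hippocampus, against 6.17 to 7.85 (median 6.95) in cortex. On this chosen probe set the difference of 1.91 ± 0.47 (adjusted p = 0.028) was spread widely and the groups overlapped. Leaving out any of 8 arrays in turn lost its call, with adjusted p up to 0.0944. The other Sox11 probe sets were all called higher as well, by 1.76 to 2.43, with adjusted p down to 1.5e-05 in limma. Also higher were Nhlh2, a helix-loop-helix factor (1.32 ± 0.09), and Igfbpl1, a secreted protein of neuroblasts (1.43 ± 0.20), both with cortex near the floor. The microtubule-binding Dpysl3 differed by 1.26 ± 0.17, and the tubulin Tubb2b averaged 12.50 ± 0.10 in hippocampus and 11.48 ± 0.26 in cortex. Stmn1, which destabilizes microtubules, was lower, at 11.42 ± 0.15 in hippocampus and 12.26 ± 0.09 in cortex. Doublecortin, Dcx, the usual label of young granule cells, differed by 0.37 ± 0.14 with no call (adjusted p = 0.191).

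Of 24 cell cycle genes, Ube2c, a ubiquitin-conjugating enzyme of mitosis, was the 1 called higher (0.42 ± 0.09) and 0 were lower, with a median of 0.09. The Ube2c call was lost on leaving out any of 4 arrays in turn (adjusted p up to 0.0623). A single call among 24 genes is near the share over all genes. Mki67 averaged 3.21 ± 0.13 in hippocampus and 2.999 ± 0.15 in cortex and Top2a 2.75 ± 0.16 in hippocampus and 2.81 ± 0.21 in cortex, both near the floor in both regions. Of the members well above it, the replication helicase subunits Mcm6, at 5.64 ± 0.47 in hippocampus and 4.89 ± 0.30 in cortex, and Mcm7, at 6.22 ± 0.47 in hippocampus and 5.43 ± 0.32 in cortex, came near to a call (0.77 ± 0.21, adjusted p = 0.0482, and 0.78 ± 0.22, adjusted p = 0.0519). These 2 were picked after their values were seen. Others well above the floor were not called either. Pcna (−0.19 ± 0.14) and Mcm5 (−0.40 ± 0.24) leaned to cortex, Rrm2 (0.46 ± 0.18) and Cdc20 (0.11 ± 0.15) to hippocampus, and Mcm4 differed by −0.02 ± 0.37. Of 16 neural stem cell genes, 4 were higher and 0 lower (median 0.35): Gfap, Hopx, the fatty acid-binding protein Fabp7 (0.66 ± 0.10) and tenascin C, Tnc (0.74 ± 0.15).

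Astrocyte genes leaned the same way. Of 24 measured, 7 were higher and 0 lower, with a median of 0.23. Gfap, the intermediate filament of astrocytes and of adult stem cells, read 9.42, 8.33, 9.68, 9.64 and 9.36 in hippocampus, against 7.03 to 8.06 (median 7.55) in cortex (1.76 ± 0.26, adjusted p = 0.00117); Ts1Cje replicate 2 lay lowest. Angiotensinogen, Agt, differed by 1.66 ± 0.14 and the membrane protein Mlc1 by 0.86 ± 0.16, with overlap for Mlc1. Hopx, a homeodomain protein of quiescent stem cells, differed by 1.44 ± 0.16. It is on the stem cell list and not on the astrocyte list. The water channel Aqp4 differed by 0.41 ± 0.07. The glutamate transporter Slc1a2, at 12.99 ± 0.13 in hippocampus and 12.99 ± 0.08 in cortex, and the folate enzyme Aldh1l1 (−0.27 ± 0.12), both found in most astrocytes, were not called.

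Of 13 oligodendrocyte precursor genes, 5 were higher and 0 lower (median 0.40), among them the fate factors Nkx2-2 (0.88 ± 0.15), Olig2 (0.77 ± 0.16) and Olig1 (0.42 ± 0.08), the last with overlapping groups. Of 22 myelin genes Sox10, a factor of the whole lineage, was higher (1.02 ± 0.19) and Cryab, a small heat shock protein, lower (−0.96 ± 0.18), with a median of 0.12. These counts are near the shares over all genes. The other probe sets of Sox10 gave 0.21 and 0.53, with no call. Mbp, myelin basic protein, averaged 13.60 ± 0.12 in hippocampus and 13.52 ± 0.05 in cortex. Of 19 microglia genes and 25 endothelial and pericyte genes 0 were called, with medians of −0.12 and 0.05. The 3 measured blood cell genes gave 0 calls and lay near the floor in both regions.

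Markers of tissue next to the dissected regions were measured beside these results. Of 17 choroid plexus genes, 4 were higher: Ttr, the bone morphogenetic protein antagonist Sostdc1 (1.17 ± 0.28), the calmodulin-like Calml4 (0.97 ± 0.18) and klotho, Kl (0.73 ± 0.18). The Sostdc1 call was lost on leaving out any of 7 arrays in turn (adjusted p up to 0.0556) and the Kl call on leaving out any of 9 (up to 0.101). Slc13a4, a sulphate transporter, was lower (−0.57 ± 0.11), and 11 of the 17 lay near the floor in both regions. The defining genes Folr1 (2.87 ± 0.73 in hippocampus and 2.43 ± 0.24 in cortex), Kcnj13 (2.76 ± 0.53 in hippocampus and 2.80 ± 0.14 in cortex) and Aqp1 (2.24 ± 0.26 in hippocampus and 2.21 ± 0.21 in cortex) were among those near the floor, and Clic6 lay close to it (3.37 ± 0.40 in hippocampus and 3.19 ± 0.10 in cortex). The mean level of the list, with Ttr included, was 3.14 to 4.16 on the hippocampus arrays and 2.77 to 3.09 on the cortex arrays. It is therefore not a measure apart from Ttr. The part of choroid plexus in the Ttr difference was not tested beyond these values.

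Of 16 ependymal and cilia genes, 7 were higher and 1 lower, with a median of 0.52, nearly all at low levels. The mean level of the list was 3.05 to 3.87 on the hippocampus arrays and 2.50 to 3.17 on the cortex arrays. These ranges mix genotypes, since the list holds Dnah11, which the study reports as strongly over-expressed in Ts1Cje. Hippocampus arrays gave 3.50 to 3.87 in Ts1Cje and 3.05 to 3.26 in disomic mice, and cortex arrays 3.05 to 3.17 and 2.50 to 2.70. Examples of the genes called higher were the calcium-binding Capsl (1.29 ± 0.14) and the dynein chain Dynlrb2 (1.16 ± 0.15), whereas Foxj1, the master factor of motile cilia, was not called (0.35 ± 0.15). Meningeal and fibroblast genes went the other way: of 20 measured, 4 were lower and 0 higher, with a median of −0.25 and a mean level of 4.68 to 5.19 on the hippocampus arrays and 5.28 to 5.55 on the cortex arrays. The proteoglycan Fmod read 5.30, 7.39, 5.52, 4.75 and 5.15 in hippocampus, against 7.61 to 8.83 (median 8.21) in cortex (−2.62 ± 0.39, adjusted p = 0.00136), prostaglandin D synthase, Ptgds, differed by −1.54 ± 0.17 and osteoglycin, Ogn, by −1.50 ± 0.29. Collagen Col1a1 was not called (0.38 ± 0.28). Ts1Cje replicate 2 was again the highest hippocampus array for Fmod.

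Of 15 striatal genes, 5 were lower and 0 higher (median −0.24), with a mean level of 4.32 to 4.56 on the hippocampus arrays and 4.70 to 5.13 on the cortex arrays. They were led by the orphan receptor Gpr6 (4.40 ± 0.80 in hippocampus and 6.55 ± 0.25 in cortex), while Ppp1r1b, encoding DARPP-32, missed the call (−0.72 ± 0.24, adjusted p = 0.108) and Drd2 lay near the floor in both regions (2.28 ± 0.20 in hippocampus and 2.30 ± 0.09 in cortex). Of 20 thalamic and hypothalamic genes, 4 were higher and 3 lower, and of 18 cerebellar genes 1 was higher and 3 lower, with medians of −0.01 and −0.03. Among the 5 striatal genes called lower, Drd1, Penk and Foxp1 are also on the subplate, interneuron and deep layer lists. Lhx9, Calb2 and Foxp2 of the thalamic and Neurod1 of the cerebellar list, described above, are also on hippocampal, cortical or immature neuron lists. The part of neighbouring tissue in these differences was not tested.

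**Figure D4:**
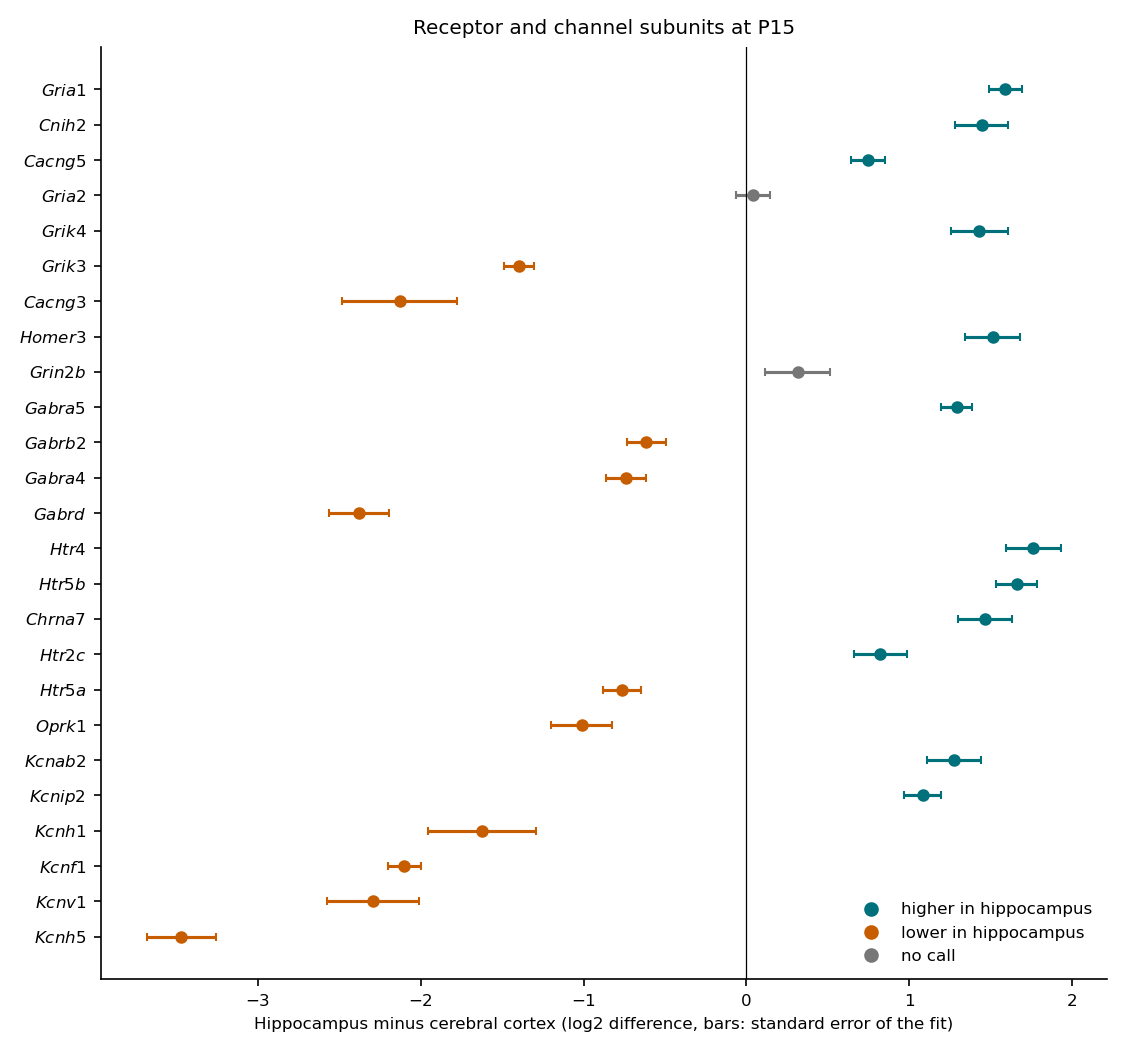
Points give the log2 difference, hippocampus minus cerebral cortex, and bars the standard error of the fit, for 25 receptor and channel subunits. The values run from −3.47 for Kcnh5 to 1.76 for Htr4, and Gria2 and Grin2b were not called.

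Glutamate receptor genes were called in both directions. Of 22 AMPA, kainate and delta receptor genes, 5 were higher and 5 lower, with a median of 0.16. Gria1, the AMPA subunit added during plasticity, read 11.17, 11.43, 11.75, 11.42 and 11.50 in hippocampus, against 9.76 to 10.002 (median 9.86) in cortex (1.59 ± 0.10, adjusted p = 2.4e-06), while Gria2, which blocks calcium entry, gave 0.04 ± 0.10 (adjusted p = 0.916). The auxiliary subunit Cnih2, which slows AMPA currents, averaged 10.47 ± 0.40 in hippocampus and 9.03 ± 0.11 in cortex, and Cacng5 4.76 ± 0.18 in hippocampus and 3.99 ± 0.23 in cortex. Cacng3, a transmembrane AMPA receptor regulator, was lower, at 6.35, 4.83, 5.45, 6.49 and 5.79 in hippocampus, against 6.78 to 8.64 (median 8.16) in cortex (−2.13 ± 0.35, adjusted p = 0.00288). Among kainate subunits Grik4 was higher and Grik3 lower (−1.40 ± 0.09).

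Of 15 NMDA and metabotropic receptor genes, 3 were higher and 2 lower (median −0.05). The scaffold Homer3 differed by 1.51 ± 0.17 and the NMDA subunit Grin2b, at 9.13 ± 0.44 in hippocampus and 8.81 ± 0.26 in cortex, was not called. GABA receptor subunits gave 2 higher and 3 lower of 13 (median −0.08). Gabra5, the extrasynaptic subunit known from CA1, read 10.58, 10.37, 10.55, 10.53 and 10.87 in hippocampus, against 9.15 to 9.40 (median 9.31) in cortex (1.29 ± 0.09, adjusted p = 6.2e-06). With the left-out array counted as hippocampus the Gabra5 difference would be −0.10, with no call. Gabrd, the extrasynaptic subunit of granule cells, read 5.38, 4.99, 4.57, 5.56 and 4.98 in hippocampus, against 6.89 to 8.01 (median 7.56) in cortex (−2.38 ± 0.18, adjusted p = 1e-05). These 2 subunits, which carry tonic inhibition, stood in opposite directions, with no overlap in either. For Gabra4, a partner of Gabrd, the difference was −0.74 ± 0.12 and for Gabrb2 −0.62 ± 0.12, both called. The other probe sets of Gabrb2 were not called, with differences of −0.09 to −0.53.

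Of 29 receptors for monoamines, acetylcholine and opioids, 6 were higher and 4 lower, with a median of 0.10. The serotonin receptors Htr4 (1.76 ± 0.17), Htr5b (1.66 ± 0.13) and Htr2c (0.82 ± 0.16) and the nicotinic subunit Chrna7 (1.47 ± 0.17) were higher. Htr5b read 4.48, 4.58, 4.50, 3.65 and 3.96 in hippocampus, against 2.50 to 2.60 (median 2.52) in cortex, where it was near the floor. Htr5a (−0.76 ± 0.12) and the kappa opioid receptor Oprk1 (−1.01 ± 0.19) were lower. Potassium channels were more often lower: of 31 subunits 8 were lower and 4 higher, with a median of −0.20. After Kcnh5 came the silent subunits Kcnv1 (−2.29 ± 0.28) and Kcnf1 (−2.10 ± 0.10), and Kcnh1 (−1.62 ± 0.33), a close relative of Kcnh5 whose groups overlapped. Kcnf1 read 6.45, 6.55, 6.71, 6.91 and 6.53 in hippocampus, against 8.46 to 9.01 (median 8.77) in cortex (adjusted p = 2.8e-07). Kcnab2, a cytoplasmic beta subunit (1.28 ± 0.17), and Kcnip2, a calcium-binding partner of Kv4 channels (1.08 ± 0.11), were higher.

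Genes induced by neuronal activity were called in both directions, 6 higher and 5 lower of 27 (median −0.08). Ptgs2, the inducible cyclooxygenase, read 6.57, 5.91, 6.96, 6.86 and 6.81 in hippocampus, against 3.44 to 4.99 (median 4.55) in cortex (2.21 ± 0.28, adjusted p = 0.00052). The nuclear receptor Nr4a3 averaged 9.19 ± 0.11 in hippocampus and 7.34 ± 0.11 in cortex and the neurotrophin Bdnf 8.28 ± 0.30 in hippocampus and 7.01 ± 0.28 in cortex. Fosl2 (1.26 ± 0.13), Jun (1.16 ± 0.19) and the pentraxin Nptx1 (0.84 ± 0.15, with overlap) were higher as well. Fos, the classical immediate early gene, read 5.62, 4.63, 4.37, 6.003 and 4.64 in hippocampus, against 5.93 to 8.03 (median 7.38) in cortex (−1.99 ± 0.42, adjusted p = 0.013); the groups overlapped and the adjusted p was 0.0512 without disomic hippocampus replicate 2. Egr1, a zinc finger factor also induced within minutes, averaged 9.71 ± 0.10 in hippocampus and 10.61 ± 0.20 in cortex (−0.90 ± 0.11). Egr2 differed by −1.41 ± 0.35, a call that leaving out any of 8 arrays in turn lost (adjusted p up to 0.0754). The phosphatase Dusp1 (−1.03 ± 0.20) and Homer1 (−0.63 ± 0.10) were lower, and Arc (0.64 ± 0.28), Npas4 (−0.995 ± 0.31) and Nr4a1 (−0.41 ± 0.14) were not called.

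Of 15 corticosteroid receptors and their targets in brain, 3 were higher and 0 lower (median 0.24). Beside Nr3c2 these were Fkbp5, a cochaperone that damps receptor signals (1.13 ± 0.11), and the zinc finger factor Zbtb16 (0.96 ± 0.23, adjusted p = 0.0261), whose groups overlapped and whose call was lost on leaving out any of 8 arrays in turn, with adjusted p up to 0.0811. The glucocorticoid receptor Nr3c1 differed by −0.48 ± 0.12, with an adjusted p of 0.0339 but a moderated t under the threshold. Another of its probe sets, at 8.04 in hippocampus and 8.72 in cortex, was called lower (−0.70, adjusted p = 0.0017). The kinase Sgk1 differed by 0.01 ± 0.11.

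Of 61 Eph receptors, ephrins, semaphorins and other guidance genes, 18 were higher and 7 lower (median 0.17). The semaphorin coreceptor Nrp2 read 7.01, 6.72, 7.38, 6.72 and 7.29 in hippocampus, against 3.97 to 4.58 (median 4.38) in cortex (2.66 ± 0.15, adjusted p = 1.1e-06), on all 4 probe sets, and Nrp1 averaged 10.08 ± 0.16 in hippocampus and 8.50 ± 0.12 in cortex, also on all 4. The receptor tyrosine kinase Epha6 differed by 2.64 ± 0.20, the Robo ligand Slit1 by 2.03 ± 0.28, the netrin receptor Unc5a by 1.57 ± 0.26 and ephrin Efnb3 by 1.53 ± 0.18. In the other direction, after Sema3a, the ligand of Nrp1, came ephrin Efna5 (−1.93 ± 0.24) and the kinase-dead receptor Ephb6 (−1.45 ± 0.12).

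Of 26 cadherins and protocadherins, 5 were higher and 9 lower (median −0.25). Pcdh20 and the photoreceptor cadherin Cdhr1 (1.44 ± 0.21) were higher. Cdh7 (−1.99 ± 0.17), Cdh6 (−1.84 ± 0.14) and the X-linked Pcdh11x (−1.81 ± 0.17) were lower. Of 27 neuropeptides, 4 were higher and 9 lower (median −0.15). Neurotensin, Nts, read 6.96, 7.18, 4.81, 6.64 and 5.52 in hippocampus, against 3.60 to 4.34 (median 3.78) in cortex (2.32 ± 0.39, adjusted p = 0.00326), and gastrin-releasing peptide, Grp, averaged 8.53 ± 0.27 in hippocampus and 7.33 ± 0.09 in cortex. Of 48 neurotrophin, Fgf and Wnt genes, 6 were higher and 5 lower (median −0.01). Fgfr1, a receptor of fibroblast growth factors, read 8.40, 8.83, 9.61, 8.47 and 9.001 in hippocampus, against 5.53 to 6.23 (median 5.77) in cortex (2.99 ± 0.22, adjusted p = 6.7e-06), 7.94-fold higher, and Wnt9a was lower and close to the floor, at 3.42 ± 0.13 in hippocampus and 5.75 ± 0.56 in cortex.

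Metabolic lists gave few calls, beside 4.52% higher and 4.19% lower over all genes. Of 57 oxidative phosphorylation subunits 0 were called, and their differences ran from −0.25 to 0.27 with a median of −0.01. Of 19 cholesterol synthesis genes, 0 were higher and 1, the sterol reductase Tm7sf2, was lower (−0.46 ± 0.11), a call lost on leaving out any of 6 arrays in turn (adjusted p up to 0.0682). That 1 call among 19 genes is near the share over all genes.

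The region difference was called as unlike between the genotypes for none of the probe sets: 0 of 45101 (0%) were called in limma for the interaction, with a lowest adjusted p of 0.9997, while 1170 had an unadjusted p under 0.05. Between regions Dsp differed by 5.11 in Ts1Cje mice and 5.63 in disomic mice, and Cckbr by −4.05 in Ts1Cje mice and −4.58 in disomic mice. With 3 and 2 hippocampus arrays per genotype, the test could miss moderate differences. Of 65 genes of the triplicated segment, 4 were higher and 1 lower in hippocampus, with a median of 0.09, beside 4.52% higher and 4.19% lower over all genes. The 4 were the glycosyltransferase B3galt5 (1.91 ± 0.16), the kinase Hunk (1.28 ± 0.12), Olig2 and Olig1, and the 1 was Pcp4.

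The region difference at P15 was then set against that at P1, P30 and P84, in a fit of 47 hippocampus and cortex arrays. The difference at P15 differed from that at P1 for 1089 probe sets (2.41%), 498 with a larger and 591 with a smaller value of hippocampus minus cortex at P15. It differed from that at P30 for 18 (0.0399%) and from that at P84 for 143 (0.317%). At P1, 2 arrays read Xist above Eif2s3y, unlike the P15 arrays, and without them the count against P1 was 1044. At P84, disomic replicate 3 of both regions was dim, and without these 2 arrays the count against P84 was 163. Both of these fits were added after seeing the data. Single arrays decided part of the later counts: without disomic hippocampus replicate 1 the count against P30 was 7 and that against P84 was 95, and without disomic hippocampus replicate 2 the count against P84 was 85. Of the 822 genes higher at P15, 74.6% had the same sign at P1 with a median of 0.23, 98.3% at P30 with a median of 0.73 and 95.9% at P84 with a median of 0.65. Of the 762 lower at P15, 67.6% had the same sign at P1 (median −0.16), 98.6% at P30 (−0.74) and 98.6% at P84 (−0.76).

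**Figure D5:**
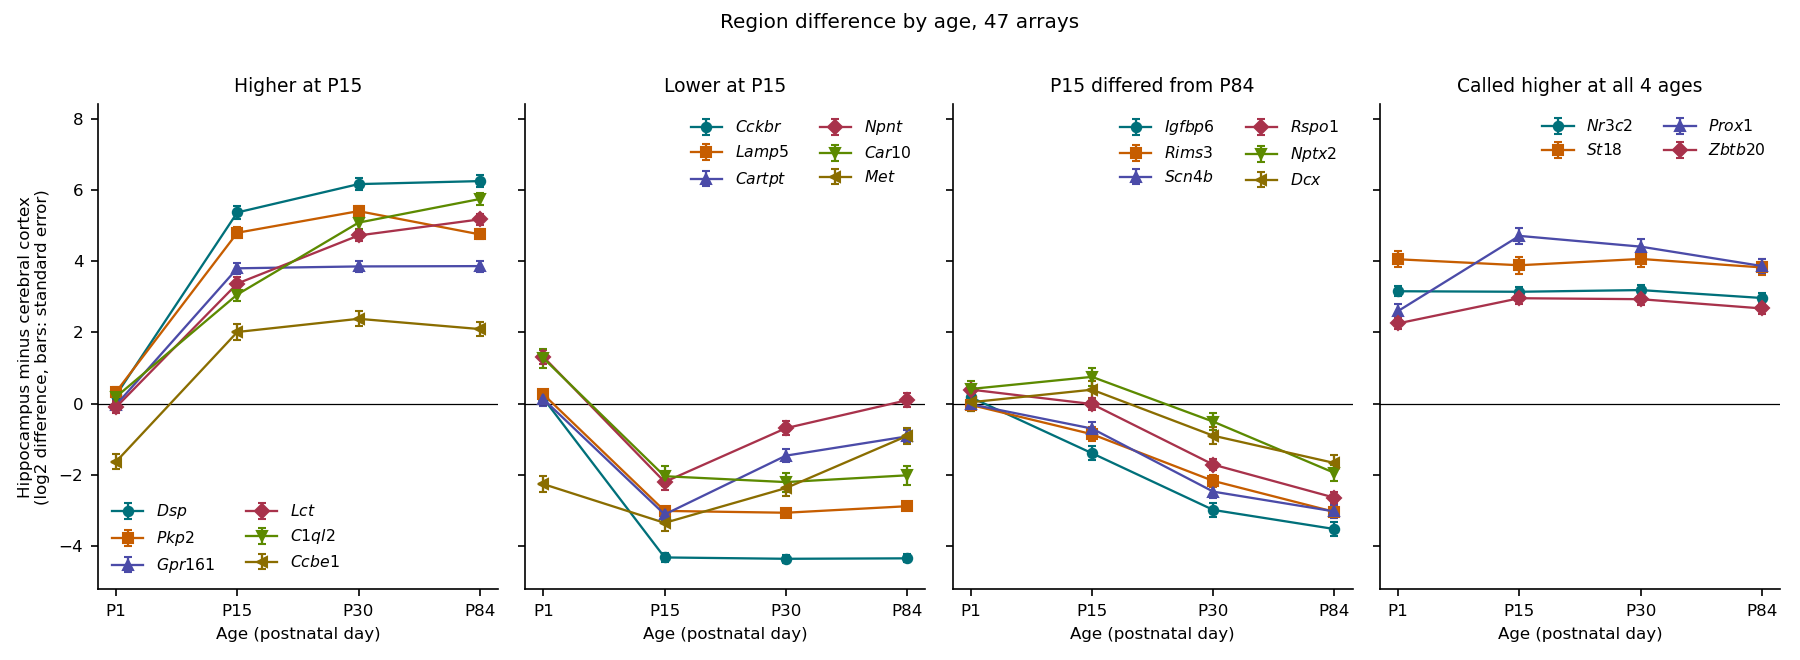
Lines give the log2 difference, hippocampus minus cerebral cortex, at P1, P15, P30 and P84 with its standard error, in 4 panels of genes. Dsp reaches 6.25 at P84 with 0.24 at P1, Cckbr lies between −4.35 and −4.31 at the last 3 ages, and Nr3c2 lies between 2.97 and 3.19 at all 4.

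Several granule cell genes were not called at P1. For Dsp the difference was 0.24 at P1, 5.37 at P15, 6.16 at P30 and 6.25 at P84, and P15 minus P1 gave 5.12 ± 0.24, adjusted p = 1.3e-17. Pkp2 likewise gave 0.33 at P1, 4.80 at P15, 5.40 at P30 and 4.75 at P84 (P15 minus P1 4.46 ± 0.21, adjusted p = 1.3e-17). C1ql2 had a smaller difference at P15 than later, at 0.19 at P1, 3.06 at P15, 5.08 at P30 and 5.74 at P84, with P15 minus P84 at −2.68 ± 0.25, adjusted p = 4.1e-08. Lct gave −0.10 at P1, 3.37 at P15, 4.72 at P30 and 5.17 at P84; P15 minus P30 was −1.35 ± 0.23, adjusted p = 0.0093, and the adjusted p was 0.0981 without disomic hippocampus replicate 1. Cortex was near the floor at every age for C1ql2 and Lct. Prox1 was already called at P1 and gave 2.60 at P1, 4.71 at P15, 4.41 at P30 and 3.86 at P84 (P15 minus P1 2.11 ± 0.30, adjusted p = 1e-05).

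For some genes it was the cortex level that differed most between P1 and P15. Gpr161 averaged 7.95 in hippocampus and 7.99 in cortex at P1 and 7.43 in hippocampus and 3.61 in cortex at P15, so that its difference was −0.03 at P1, 3.80 at P15, 3.85 at P30 and 3.86 at P84. Ccbe1, a matrix protein of lymphatic growth, reversed sign, at −1.63 at P1, 2.01 at P15, 2.38 at P30 and 2.09 at P84: its levels were 5.84 in hippocampus and 7.46 in cortex at P1 and 5.89 in hippocampus and 3.89 in cortex at P15. Bok also reversed, at −0.63 at P1, 2.18 at P15, 1.25 at P30 and 1.03 at P84, and so did the unconventional myosin Myo5b, at −1.05 at P1, 1.61 at P15, 2.83 at P30 and 2.81 at P84, whose hippocampus level was higher at P15. In contrast Nr3c2 gave 3.16 at P1, 3.14 at P15, 3.19 at P30 and 2.97 at P84, St18 4.05 at P1, 3.88 at P15, 4.06 at P30 and 3.82 at P84 and Zbtb20 2.25 at P1, 2.96 at P15, 2.93 at P30 and 2.67 at P84, all called at all 4 ages with no call of a change. Hspa1b, an inducible heat shock protein, had its largest difference at P15, at 0.71 at P1, 2.60 at P15, 1.62 at P30 and 0.49 at P84 (P15 minus P84 2.11 ± 0.21, adjusted p = 1e-07).

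Among genes lower at P15, Cckbr was near the floor in both regions at P1 (2.72 in hippocampus and 2.57 in cortex) and gave differences of 0.15 at P1, −4.31 at P15, −4.35 at P30 and −4.34 at P84 (P15 minus P1 −4.46 ± 0.17, adjusted p = 4.1e-20). Lamp5 was similar, at 0.26 at P1, −3.01 at P15, −3.06 at P30 and −2.88 at P84. Car10, a carbonic anhydrase-related protein of synapses, reversed sign, at 1.28 at P1, −2.03 at P15, −2.20 at P30 and −2.01 at P84. For Cartpt and Npnt P15 was the age of the most negative difference and was called against all 3 other ages. Cartpt gave 0.13 at P1, −3.11 at P15, −1.46 at P30 and −0.92 at P84, its cortex level being 1.97 at P1, 6.14 at P15, 4.13 at P30 and 3.65 at P84. Npnt gave 1.31 at P1, −2.19 at P15, −0.69 at P30 and 0.10 at P84, with a cortex level of 9.23 at P15 and 6.40 at P84. Its P30 call (P15 minus P30 −1.51 ± 0.29, adjusted p = 0.027) was lost without any 1 of 3 arrays, namely disomic hippocampus replicate 1, disomic cortex replicate 2 or Ts1Cje cortex replicate 3, with adjusted p up to 0.181. Met gave −2.26 at P1, −3.34 at P15, −2.37 at P30 and −0.90 at P84 (P15 minus P84 −2.44 ± 0.32, adjusted p = 3e-05).

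Other genes had a more negative difference after P15. Igfbp6, which binds insulin-like growth factor 2, gave 0.18 at P1, −1.39 at P15, −2.98 at P30 and −3.52 at P84, Scn4b, a sodium channel beta subunit, −0.01 at P1, −0.70 at P15, −2.47 at P30 and −3.02 at P84, and the Wnt agonist Rspo1 0.40 at P1, −0.01 at P15, −1.71 at P30 and −2.64 at P84. Rspo1 averaged 2.67 in hippocampus and 2.65 in cortex at P15 and 2.06 in hippocampus and 4.70 in cortex at P84 (P15 minus P84 2.63 ± 0.23, adjusted p = 7.8e-09). The active zone protein Rims3 gave −0.03 at P1, −0.86 at P15, −2.17 at P30 and −3.03 at P84; its call against P30 (P15 minus P30 1.31 ± 0.26, adjusted p = 0.041) was lost without any 1 of 8 arrays, with adjusted p up to 0.151. Nptx2, a pentraxin that gathers AMPA receptors, gave 0.41 at P1, 0.75 at P15, −0.50 at P30 and −1.94 at P84, and Dcx 0.04 at P1, 0.39 at P15, −0.90 at P30 and −1.66 at P84. Dcx averaged 9.36 in hippocampus and 9.001 in cortex at P15 and 6.50 in hippocampus and 8.16 in cortex at P84, and its P15 difference differed from that at P84 (2.06 ± 0.35, adjusted p = 0.0012).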

How the data were processed

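RNA of cerebral cortex, hippocampus and cerebellum was hybridised to Affymetrix whole-genome mouse arrays after Two-Cycle labelling, 1 array per region and mouse. The deposited values are log2 gcRMA signals computed by the authors, a method that corrects background and normalizes arrays as a set, so a value depends on the other arrays of its set. Whether all 72 arrays were one set is not stated. Which release of gcRMA was used is not stated by the labels or methods. From these values, limma 3.58.1 in R 4.3.3 was fitted to 11 P15 arrays with region and genotype as terms (empirical Bayes, Benjamini-Hochberg over 45101 probe sets). As in the study's methods, a call needed a moderated t of at least 4 in size and an adjusted p of at most 0.05. Other fits gave each group its own mean, over the 11 arrays for the interaction and over 47 for the ages. The number of arrays limits the precision. The code was tested on simulated data.

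Probe sets were named from the platform annotation: 34958 had 1 symbol, 932 several and 9211 none, and 34754 were updated through their gene ID. A gene was represented by its probe set with the highest mean over the 11 arrays. Genes were named by rule: the 20 most raised and 20 most lowered called genes without overlap, up to 6 called members and the defining members of each of 36 lists, and up to 8 per direction for each age comparison. Of the symbols on the lists 799 of 863 were measured. Members and lists were chosen with earlier results of these data known. Promoter windows came from the RefSeq table. The alternatives were another sample set, normalization, filter, prior, array weights, blocks and leaving out each P15 array.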

Additional observations from a re-analysis of the deposited data

Results flagged for a closer look

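The array labelled P15 disomic hippocampus replicate 3, used in no comparison, read 12.04 for Gabra6, 8.58 for Cbln3 and 13.82 for Pcp2, far above the other hippocampus arrays. Of 398 groups of 5 hippocampus or 6 cortex values, 20 held 1 value far from the rest (Dixon's test at 95%), and chance sets apart about 1 in 20 groups. Ts1Cje hippocampus replicate 1 read 6.93 for Dsp. Ts1Cje hippocampus replicate 2 read 5.91 for Met, 2.67 for Tdo2, 8.33 for Gfap and 9.81 for Nptx1. Ts1Cje hippocampus replicate 3 read 2.78 for Kcnh5, 7.10 for Sox10 and 6.47 for Homer3. Disomic hippocampus replicate 1 read 4.80 for Unc5d and 7.01 for Car10. Disomic hippocampus replicate 2 read 4.89 for Tnc and 6.07 for Zbtb16. Ts1Cje cortex replicate 1 read 8.40 for Grik3 and 4.67 for Cdhr1. Ts1Cje cortex replicate 3 read 6.72 for Cobl, 12.8 for Slc1a2, 6.72 for Kcnv1 and 3.49 for Scn4b. Disomic cortex replicate 1 read 10.8 for Gabrb2. Disomic cortex replicate 3 read 2.59 for Nhlh2.

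The region difference (hippocampus minus cortex, log2) at P15 differed from that at another age, by limma, for these named genes. Against P1 the value at P15 minus that at P1 was called for Dsp (5.12), Pkp2 (4.46), Prox1 (2.11), Gpr161 (3.83), Lct (3.47), C1ql2 (2.87), Cckbr (−4.46), Cartpt (−3.23), Lamp5 (−3.27), Npnt (−3.51), Bok (2.82), Car10 (−3.31), Ccbe1 (3.64), Myo5b (2.66), Igfbp6 (−1.57) and Hspa1b (1.89). P15 minus P30 was called for Lct (−1.35), C1ql2 (−2.02), Cartpt (−1.65), Npnt (−1.51), Myo5b (−1.22), Scn4b (1.77), Rspo1 (1.70), Igfbp6 (1.59) and Rims3 (1.31). P15 minus P84 was called for Lct (−1.80), C1ql2 (−2.68), Met (−2.44), Cartpt (−2.19), Npnt (−2.29), Bok (1.15), Dcx (2.06), Myo5b (−1.20), Scn4b (2.33), Rspo1 (2.63), Igfbp6 (2.13), Rims3 (2.18), Nptx2 (2.69) and Hspa1b (2.11). The calls of Lct, Npnt and Rims3 against P30 were each lost on leaving out single arrays.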

How the results depend on the processing

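Under every alternative the probe sets called in both it and the fit described above had the same direction. The count of 1439 probe sets higher and 1387 lower was 685 and 786 in 1 fit of 71 arrays with 24 group means, 741 and 770 among probe sets with a mean of at least 5, 459 and 493 with a 2-fold difference required, 378 and 351 with Ts1Cje arrays alone and 498 and 616 with disomic arrays alone. The fit of 71 arrays holds the cerebellum-labelled array with the hippocampal profile. Without it, in a fit of 70 arrays added after seeing the data, 836 were higher and 929 lower, 24 named genes lost their call, and 30 probe sets differed from P30. The count was 729 higher with all 12 arrays as labelled. Leaving out 1 array gave 1214 to 1543 higher and 1136 to 1528 lower. The 1089 probe sets that differed from P1 became 703, 607 and 708 in the fit of 71 arrays, with the mean of at least 5 and with the 2-fold difference. For P30, in place of 18, these were 7 and 6 for the first 2, with 80 under array quality weights, 8 with all 48 arrays, 53 with mouse as a random replicate block and 7 to 25 on leaving out 1 array. For P84, in place of 143, they were 85, 63 and 95, with 360 under weights, 252 with the random block and 85 to 136 on leaving out 1 array. The cause of these shifts was not tested. For the genotype interaction 0 were called in every fit, with 251 to 2841 at an unadjusted p under 0.05. Of the 167 genes named above with a call, 62 lost it with all 12 arrays and the sign kept, and Gabra5 with the sign turned. The call was lost for 40 in the fit of 71 arrays, 30 with the 2-fold difference required, 60 with Ts1Cje arrays alone and 35 with disomic arrays alone. Of the same genes 2, Ube2c and Kl, lost it with mouse as a fixed block and 0 with mouse as a random block. Cux2 gave 0.12 (adjusted p = 0.742 in limma) on another probe set, and Gabra5 −0.10 (adjusted p = 0.986 in limma) with all 12 arrays.

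Replicate numbers were not taken to pair hippocampus with cortex, since the deviations of same-numbered samples correlated at 0.61 and 0.46 in 2 disomic pairs but at 0.75, 0.00098 and −0.000071 in the Ts1Cje pairs. Of the 5 hippocampus samples, 3 correlated best with the cortex sample of their own number. With the number and genotype as a fixed replicate block 1677 were higher and 1681 lower, as a random block 1583 and 1556, and with the number alone, chosen after seeing the data, 1870 and 1795. Precision is limited by 5 and 6 arrays and, for dim genes, by the background of the array.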
